A study of Mus musculus with 7 samples.

Results

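Mitochondrial ribosomal protein genes encode the proteins of the mitoribosome, the ribosome that works inside mitochondria. They were taken by symbol, as every gene whose name begins with Mrpl or Mrps and a number and that had a probe set annotated to no other gene. This gave 71 of the 22180 genes tested, 43 of the large subunit (Mrpl) and 28 of the small subunit (Mrps). They were read on 80 probe sets, and for the 9 genes with several the one with the highest mean over the 7 arrays was used. A further 7 genes of this name (Mrpl30, Mrpl33, Mrpl41, Mrpl43, Mrpl44, Mrpl53 and Mrps6) had only probe sets shared with another gene and are not analysed here. The members lay on 17 chromosomes, and 69 of the 71 lay above the median of all probe sets on at least 3 arrays. The other two, Mrps14 and Mrps36, were dimmer.

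The RNA came from lamina propria macrophages, sorted from inflamed mouse colons, and was read on 7 Affymetrix Mouse Gene 2.0 ST arrays, 1 per sample. Every mouse had drunk 5% dextran sulphate sodium (DSS), which injures the colon epithelium, for 5 days and then plain water for 3 days, and the sort took CD45+ CD11b+ CD64+ MHCII+ Ly6C- cells. All mice were Rictor fl/fl, with floxed alleles of a gene for a subunit of the kinase complex mTORC2. The 3 control samples were Rictor fl/fl LysM+/+, and the 4 others were Rictor fl/fl LysM+/cre, with 1 cre allele in the lysozyme locus, which is active in macrophages, monocytes and neutrophils. The sources used here give neither age nor sex nor the number of mice per sample, so p-values measure the spread between these samples. No group carried cre without floxed Rictor, so effects of cre, of its insertion and of Rictor loss cannot be told apart.

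The mitoribosome translates the few mRNAs of mitochondrial DNA, all of which encode core subunits of the respiratory chain and ATP synthase. Its RNAs are made in the mitochondrion, but all its proteins are encoded in the nucleus, made in the cytosol and imported. Many of these proteins have a bacterial counterpart and share its number, while others were added during the evolution of mitochondria. In macrophages the respiratory chain supplies ATP and also shapes inflammatory and alternative activation.

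The nuclear promoters of such genes are known for sites of NRF1, of the ETS factor GABP and of YY1, so the members' promoters were read for these letters. RefSeq windows of build GRCm38.p6, from 250 bases before to 50 bases after a gene's start, were held for 62 of the 71 members. On either strand the NRF1 motif GCGCANGCG was in 22.6% of the members' windows (14 of 62), against 9.72% of the 16918 tested genes with a window and 7.03% of all genes with one. The ETS motif CCGGAAG was in 37.1% (23 of 62), against 12.7% of tested genes and 9.93% of all. The YY1 motif AAGATGGCG was in 12.9% (8 of 62), against 2.18% of tested genes and 1.64% of all. At least 1 of these 3 motifs was in 59.7% of the members' windows and in 21.6% of those of tested genes. The shares of the other motifs read were not above those of tested genes. The E-box CACGTG of MYC was in 8.06% of members and 9.22% of tested genes, and TATAAA in 8.06% and 14.3%. The motifs can overlap each other, and an NRF1 match that is nearly its own reverse complement counts once per gene.

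Upstream stretches of 3 members show how these motifs lie. Each is the member of smallest p-value that holds the motif before the start of its only window in the RefSeq table, with no other gene’s start close by on the opposite strand and that is not yet shown, printed 5′ to 3′ on the gene's strand up to that start, with matches of the NRF1, ETS and YY1 motifs in capitals. Mrpl22 (chr11:58171414-58171663, + strand) holds an ETS and an NRF1 match, Mrpl34 (chr8:71464676-71464925, + strand) an ETS match and Mrpl36 (chr13:73330759-73331008, + strand) a YY1 match read on the other strand, beside an E-box left in lower case. The RefSeq spans of Mrpl22 and Mrpl36 begin further upstream, at 58170043 and 73328503, so another start is listed for each and these stretches lie within the gene spans.
Mrpl22: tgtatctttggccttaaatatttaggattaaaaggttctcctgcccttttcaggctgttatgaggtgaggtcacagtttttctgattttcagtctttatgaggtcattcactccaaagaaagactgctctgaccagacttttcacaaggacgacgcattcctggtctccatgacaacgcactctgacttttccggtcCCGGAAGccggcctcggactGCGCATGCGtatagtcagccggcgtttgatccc
Mrpl34: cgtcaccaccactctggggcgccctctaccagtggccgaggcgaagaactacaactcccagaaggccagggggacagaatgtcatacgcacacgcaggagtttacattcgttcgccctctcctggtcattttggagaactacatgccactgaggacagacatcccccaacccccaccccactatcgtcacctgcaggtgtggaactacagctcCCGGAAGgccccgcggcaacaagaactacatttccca
Mrpl36: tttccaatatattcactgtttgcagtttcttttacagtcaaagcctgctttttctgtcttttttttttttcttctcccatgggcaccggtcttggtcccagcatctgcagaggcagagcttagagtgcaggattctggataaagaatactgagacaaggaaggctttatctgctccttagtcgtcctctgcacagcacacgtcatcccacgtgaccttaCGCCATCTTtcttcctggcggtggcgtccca

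The series as a whole set the frame for these values. Array medians lay between 5.16 and 5.22 on the log2 scale, and pairs of arrays correlated at 0.968 to 0.982 over all probe sets. The floxed gene Rictor read 7.76, 7.74 and 7.80 without cre and 7.72, 7.76, 8.25 and 7.80 with cre. The difference was 0.12 ± 0.13 (SE, adjusted p = 0.749), and -0.0040 without LysM+/cre array 3. Which exons this probe set reads is not stated here, so the signal cannot serve as a check of the labels. The sorted cells carried macrophage RNA, with 11 of 12 listed macrophage markers measured and a mean log2 intensity of 10.94 to 11.45 per array. Ly6c2, whose product the sort excluded, read 6.87, 7.15 and 7.70 without cre and 9.30, 7.69, 7.87 and 8.48 with cre. In bulk RNA, fewer cells of a type and less RNA per cell cannot be told apart.

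Mitochondrial ribosomal protein genes were nearly all brighter on the LysM+/cre arrays, each by a small amount. Of the 71 members, 69 were higher with cre, or 97.2%, where 51.4% of all genes were. The median log2 difference was 0.21, a 1.15-fold step, against 0.0044 over all genes. The middle part of the members, from the lower to the upper quartile, lay between 0.15 and 0.31, and the whole range ran from -0.070 for Mrpl27 to 0.56 for Mrpl20. No member passed the test in limma with Benjamini-Hochberg adjustment over all genes, where the smallest adjusted p of a member was 0.328 and 0% of all genes passed. At an unadjusted p under 0.05, 16 members were higher (22.5%, against 6.56% of all genes) and 0 were lower (against 4.93%). With array medians set equal these shares of all genes were 8.05% and 3.87%, and 20 members were higher. For 14 members the values of one genotype lay entirely apart from those of the other, all higher with cre (19.7%, against 5.23% of all genes), while 0 members were lower without overlap (against 3.56%). These counts leaned on LysM+/+ array 3. Without it 64 of 71 members were higher (90.1%, against 50.7% of all genes), with a median of 0.17. The number higher at an unadjusted p under 0.05 was then 8 (11.3%, against 4.55% of all genes). Without LysM+/cre array 2 that number was 9 (12.7%, against 5.24% of all genes). Since members are mostly bright, the same share was also read over genes above the median of all probe sets, where it was 9.29% of genes against 20.3% of the 69 members kept.

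**Figure D1:**
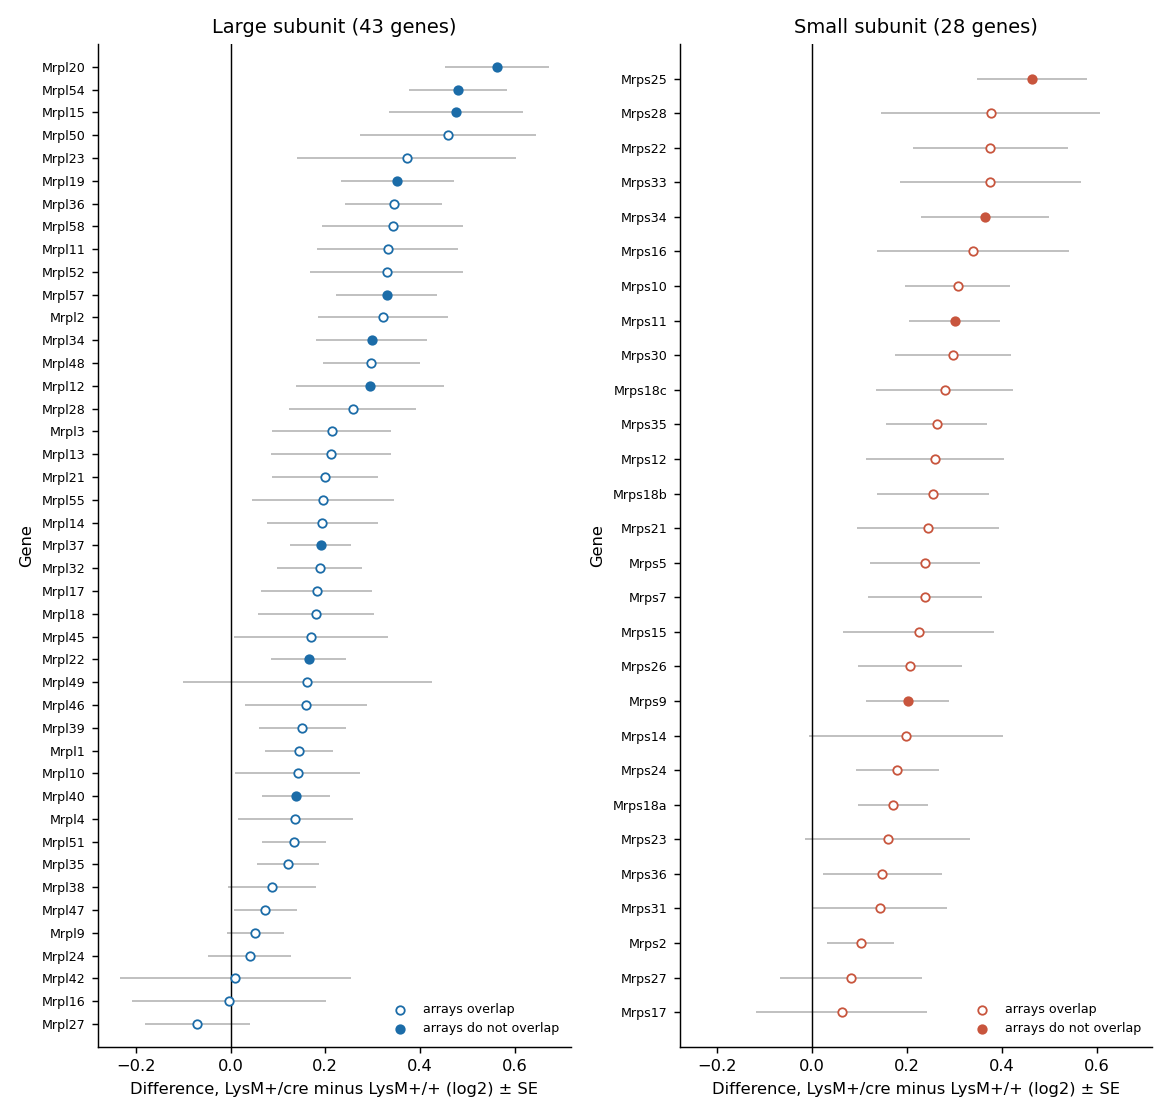
Difference between genotypes in log2 intensity for each of the 43 large subunit genes (left) and 28 small subunit genes (right), with its SE from limma. Filled points mark the 14 genes whose arrays do not overlap between genotypes, and 69 of the 71 points lie above 0.

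**Figure D2:**
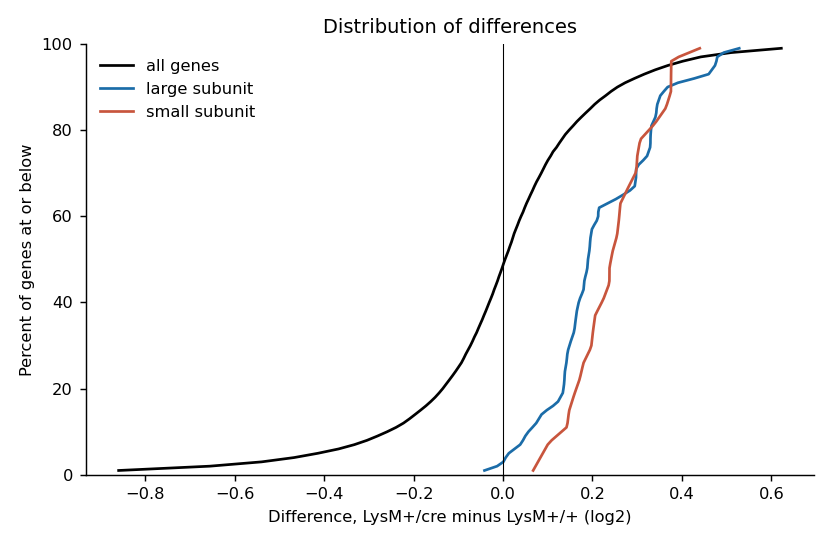
Percent of genes at or below each log2 difference (LysM+/cre minus LysM+/+), from the 1st to the 99th percentile, for all 22180 genes and for the large and small subunit. Both subunit curves lie to the right of the curve of all genes except at its top end, with medians of 0.19 and 0.24 against 0.0044.

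The subunits had like differences. The large subunit had a median difference of 0.19, with 41 of 43 genes higher (95.3%, against 51.4% of all genes) and 10 at an unadjusted p under 0.05 (23.3%, against 6.56% of all genes). The small subunit had a median of 0.24, with 28 of 28 higher and 6 at an unadjusted p under 0.05 (21.4%, against the same 6.56% of all genes). Each array was given a score per subunit, the mean deviation of its genes from their own means over the 7 arrays, on the log2 scale. The large subunit scored -0.050, -0.099 and -0.23 on LysM+/+ arrays 1 to 3, and 0.14, 0.18, 0.021 and 0.038 on LysM+/cre arrays 1 to 4. The small subunit scored -0.059, -0.14 and -0.22 on the same LysM+/+ arrays, and 0.16, 0.17, 0.042 and 0.049 on the LysM+/cre arrays. In both subunits every LysM+/cre array lay above every LysM+/+ array, array 3 was the lowest of all, and arrays 1 and 2 with cre lay well above arrays 3 and 4 with cre. The group means of the large subunit score were -0.13 ± 0.092 (SD, n = 3) and 0.094 ± 0.076 (SD, n = 4), and those of the small subunit -0.14 ± 0.082 (SD, n = 3) and 0.10 ± 0.069 (SD, n = 4). The large minus the small subunit score ran from -0.0045 to 0.040 without cre and from -0.021 to 0.0089 with cre. These ranges overlapped, and the group means differed by -0.026, with SDs of 0.023 and 0.014.

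**Figure D3:**
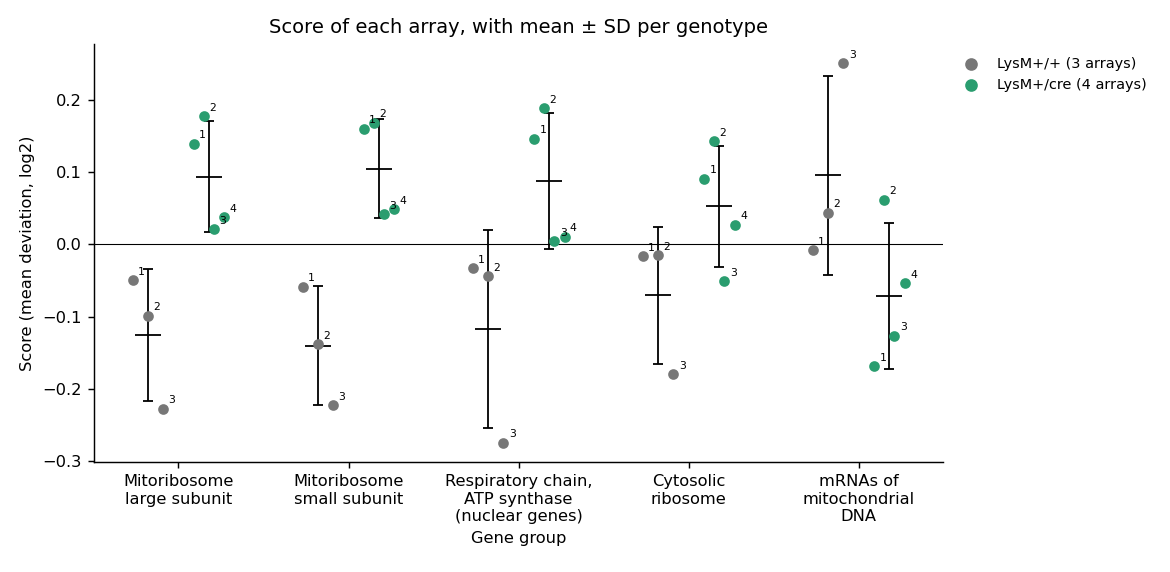
Score of each array, the mean log2 deviation of a group's genes from their means over the 7 arrays, for 5 gene groups; numbers name the arrays, and bars give the mean ± SD of 3 LysM+/+ and 4 LysM+/cre arrays. Both mitoribosome subunits separate the genotypes, from -0.23 to -0.050 against 0.021 to 0.18 for the large subunit. Respiratory chain and ATP synthase genes separate them too, from -0.27 to -0.032 against 0.0046 to 0.19. The cytosolic ribosome and the mRNAs of mitochondrial DNA overlap.

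Single arrays shared out the extreme values unevenly. The highest value of a member lay on a LysM+/cre array for 63 of 71 members, most often on array 2 (30 members) and array 1 (20 members). The lowest value lay on a LysM+/+ array for 69 members, and for 42 of them on array 3, for 17 on array 2 and for 10 on array 1. LysM+/cre arrays 3 and 4 held the highest value of 6 and 7 members and the lowest of 1 each. These extremes were not counted over all genes, so they have no background share, and 4 of the 7 arrays were LysM+/cre. Members were also split by number, since the low numbers are those of bacterial counterparts. Large subunit genes numbered 1 to 36 had a median of 0.20 (24 of 26 higher) and those numbered above 36 a median of 0.17 (17 of 17 higher). Small subunit genes numbered 2 to 21 had a median of 0.24 (15 of 15 higher) and those above 21 a median of 0.26 (13 of 13 higher). Beside these counts, 51.4% of all genes were higher.

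In the large subunit, Mrpl20 had the greatest difference of all members on the probe sets used. It encodes the counterpart of a bacterial protein that binds early in large subunit assembly. It read 6.03, 5.85 and 5.96 without cre and 6.27, 6.69, 6.60 and 6.48 with cre. All 4 LysM+/cre arrays lay above the LysM+/+ arrays, with array 1 the lowest of them, and the difference was 0.56 ± 0.11 (SE, adjusted p = 0.328). Mrpl54, a protein without a bacterial counterpart, read 7.70, 7.61 and 7.50 without cre and 8.24, 8.04, 7.88 and 8.17 with cre. The genotypes did not overlap, and the difference was 0.48 ± 0.10 (SE, adjusted p = 0.333). Mrpl15, a counterpart of bacterial L15, read 6.18, 6.33 and 5.87 without cre and 6.59, 6.56, 6.41 and 6.84 with cre. Its difference was 0.48 ± 0.14 (SE, adjusted p = 0.394), with LysM+/+ array 3 far below the rest, and 0.35 without that array.

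Smaller steps followed in the large subunit. Mrpl36, whose upstream stretch with a YY1 match is printed above, encodes a small counterpart of bacterial L36. It read 5.94, 5.75 and 5.73 without cre and 6.20, 6.18, 5.93 and 6.29 with cre. The difference was 0.34 ± 0.10 (SE, adjusted p = 0.394), but 0.044 ± 0.076 (SE) on its second probe set. Here LysM+/cre array 3 fell just under the highest LysM+/+ array. Mrpl57 read 6.47, 6.27 and 6.07 without cre and 6.70, 6.57, 6.48 and 6.65 with cre. The difference was 0.33 ± 0.11 (SE, adjusted p = 0.401). Mrpl19, a counterpart of bacterial L19 at the face between the subunits, read 6.05, 6.44 and 6.46 without cre and 6.59, 6.77, 6.74 and 6.57 with cre. Neither of these last genes overlapped between genotypes, and in Mrpl19 it was LysM+/+ array 1 that lay lowest. Its difference was 0.35 ± 0.12 (SE, adjusted p = 0.406), and 0.22 without that array. The other large subunit genes with an unadjusted p under 0.05, named here after their values were seen, were Mrpl37 (0.19), Mrpl48 (0.30), Mrpl34 (0.30) and Mrpl50 (0.46).

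The large subunit also held the members that did not share the shift. Mrpl27, a counterpart of bacterial L27 that reaches towards the peptidyl transferase centre, read 5.21, 5.17 and 5.56 without cre and 5.39, 5.17, 5.21 and 5.21 with cre. Its difference of -0.070 ± 0.11 (SE) came with LysM+/+ array 3 as the highest, and was 0.054 without that array. Mrpl16, a counterpart of bacterial L16, read 7.43, 8.13 and 7.26 without cre and 7.55, 7.79, 7.55 and 7.51 with cre. The difference was -0.0026 ± 0.20 (SE, adjusted p = 0.999), and 0.26 without LysM+/+ array 2, which stood far above the rest.

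The stalk of the large subunit recruits translation factors, and Mrpl12 and Mrpl10 are among its proteins. Mrpl12, the counterpart of bacterial L7/L12, which also binds the mitochondrial RNA polymerase, read 5.53, 5.42 and 5.49 without cre and 6.21, 5.65, 5.62 and 5.62 with cre. The genotypes did not overlap, and the difference was 0.29 ± 0.16 (SE, adjusted p = 0.511). LysM+/cre array 1 stood far above the rest, and without it the difference was 0.15. Its value there, 6.21185, was also deposited for Mrps10, Hars2, Mgme1 and Cxcr2 on some arrays, so it may not be a reading of Mrpl12 alone. Why it recurs was not tested. Other values recur between genes too, such as 6.56955 in Mrpl57 on LysM+/cre array 2 and in Mrpl19 on LysM+/cre array 4. A second probe set of Mrpl12 gave 0.21 ± 0.082 (SE). Mrpl10, which anchors the stalk, was higher by 0.14 ± 0.13 (SE, adjusted p = 0.694), and -0.018 without LysM+/+ array 3. Its second, dimmer probe set gave -0.059 ± 0.079 (SE), the only member of the 9 with several probe sets in which they differed in sign. Size differed between the probe sets of several members: the used and the second one gave 0.074 and 0.30 for Mrpl47, 0.34 and 0.65 for Mrps16, and 0.24 and 0.0061 for Mrps5, while those of Mrps17 were close at 0.062 and 0.055. These 4 genes were named after their values were seen.

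In the small subunit, Mrps25 led. It is a protein without a bacterial counterpart, and it read 7.07, 6.81 and 6.71 without cre and 7.37, 7.13, 7.34 and 7.48 with cre. All LysM+/cre arrays lay above the LysM+/+ arrays, and the difference was 0.46 ± 0.12 (SE, adjusted p = 0.354). Mrps11, a counterpart of bacterial S11 on the platform of the subunit, read 7.04, 6.93 and 7.29 without cre and 7.45, 7.30, 7.41 and 7.39 with cre. Its difference was 0.30 ± 0.096 (SE, adjusted p = 0.401), with array 2 of the LysM+/cre group only just above LysM+/+ array 3. Mrps34, which is needed for a stable small subunit, read 6.82, 6.70 and 6.50 without cre and 7.15, 7.28, 6.89 and 6.83 with cre. The genotypes were just apart, at a difference of 0.36 ± 0.14 (SE, adjusted p = 0.415).

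Mrps10, a counterpart of bacterial S10 in the head of the subunit, differed by 0.31 ± 0.11 (SE, adjusted p = 0.414), from 6.03 ± 0.17 (SD, n = 3) to 6.33 ± 0.14 (SD, n = 4). Mrps35 differed by 0.26 ± 0.11 (SE, adjusted p = 0.428), from 6.31 ± 0.14 (SD, n = 3) to 6.57 ± 0.15 (SD, n = 4). In Mrps35 the lowest LysM+/cre array met the highest LysM+/+ array. In Mrps10 the lowest LysM+/cre array, array 3, fell just under the highest LysM+/+ array, at 6.206 against 6.212. That highest LysM+/+ value is the 6.21185 that recurs between genes. Mrps12, the counterpart of bacterial S12 at the decoding centre, read 6.95, 6.79 and 6.75 without cre and 7.39, 6.99, 6.79 and 7.19 with cre. Its difference of 0.26 ± 0.15 (SE, adjusted p = 0.531) came with overlap, since LysM+/cre array 3 lay among the LysM+/+ arrays, and was 0.16 without LysM+/cre array 1.

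**Figure D4:**
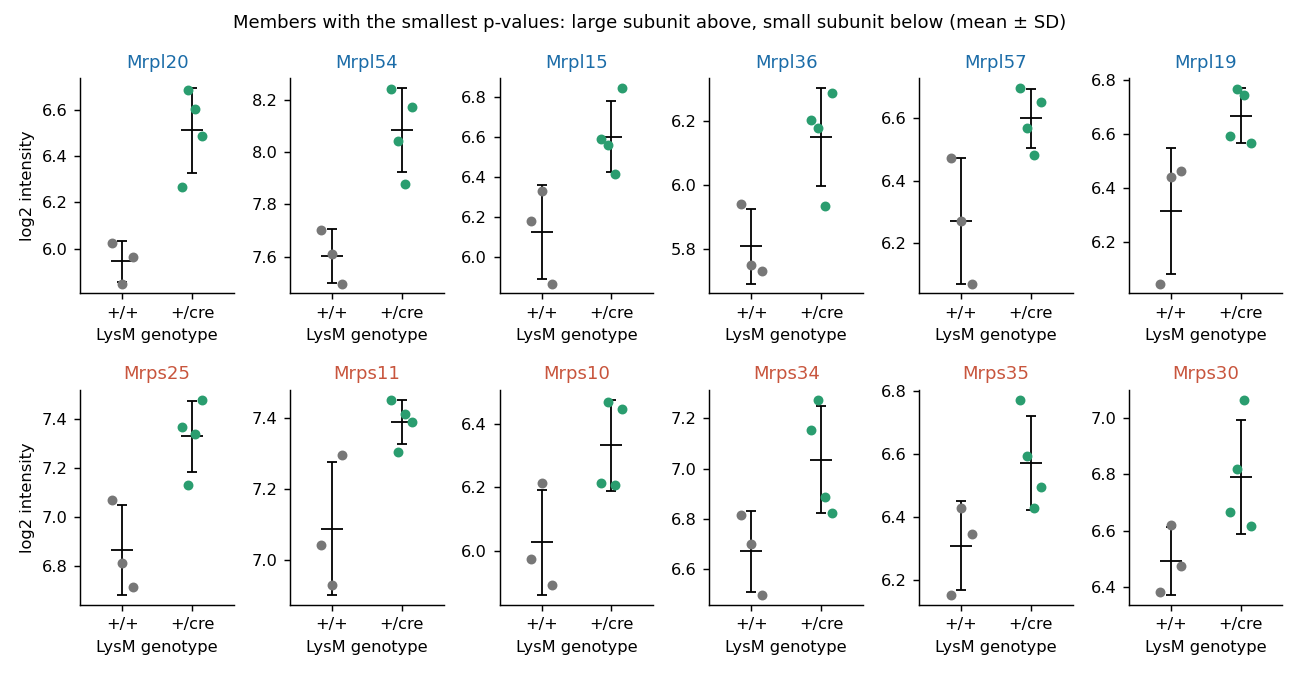
Log2 intensity on each array for the 6 large subunit genes (above) and 6 small subunit genes (below) with the smallest p-values among those higher with cre; points are arrays and bars the mean ± SD of 3 LysM+/+ and 4 LysM+/cre arrays, on axes that do not start at 0. Mrpl20, Mrpl54, Mrpl15, Mrpl57, Mrpl19, Mrps25, Mrps11 and Mrps34 show no overlap, with a greatest difference of 0.56 in Mrpl20.

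Some symbols do not tell where the protein sits. Mrps30 and Mrps18a are small subunit proteins by name and large subunit proteins in the structure of the mammalian mitoribosome, and Mrps36 belongs to the oxoglutarate dehydrogenase complex. Mrps30 read 6.38, 6.62 and 6.48 without cre and 6.67, 6.82, 7.06 and 6.62 with cre. It differed by 0.30 ± 0.12 (SE, adjusted p = 0.430). Mrps18a differed by 0.17 ± 0.074 (SE, adjusted p = 0.442). Its paralogs in the small subunit, Mrps18b and Mrps18c, which descend from the same bacterial protein S18, differed by 0.25 ± 0.12 (SE, adjusted p = 0.459) and 0.28 ± 0.14 (SE, adjusted p = 0.498). On their second probe sets these were 0.029 and 0.039, and without LysM+/+ array 3 the values were 0.16 and 0.097. Mrps36 was dim, from 3.78 to 4.15 without cre and from 3.95 to 4.32 with cre, and differed by 0.15 ± 0.13 (SE, adjusted p = 0.666), but by 0.039 without LysM+/+ array 3 and 0.22 without array 1. With these genes placed by structure the medians were 0.19 for 45 large and 0.24 for 25 small subunit genes, the same to 2 decimals.

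Differences were also read by promoter motif, with no test. Members with an NRF1 match had a median difference of 0.19 and those without one 0.21. For the ETS motif the medians were 0.25 with and 0.19 without, and for YY1 0.18 and 0.20. The 5 members with an E-box had a median of 0.32 and those without 0.20, and for TATAAA the medians were 0.16 and 0.20. Many members share their start region with another gene that is read the opposite way: 23 of 62 had such a start within 1000 bases upstream (37.1%), against 13.9% of the tested genes with a window. One such pair lies within the mitoribosome itself, since Mrps11 (0.30) and Mrpl46 (0.16) start 42 bases apart. The 21 tested partners that are not members had a median difference of 0.045, with 13 higher and 8 lower, and the members beside them a median of 0.20. At an unadjusted p under 0.05, 1 of these 21 partners was higher and 4 of 21 were lower with cre, against 6.56% and 4.93% of all genes. Of all genes 51.4% were higher at any size. Mrpl40 (0.14) and its partner Hira (-0.33), a histone chaperone gene, are an example picked after the values were seen.

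The other genes of mitochondrial translation were read by list. Mitoribosome proteins with other symbols gave 3 measured genes of 7 listed: the GTP-binding small subunit protein Dap3 (0.18 ± 0.088 SE), the small subunit protein Ptcd3 (0.37 ± 0.22 SE) and the large subunit protein Gadd45gip1 (0.063 ± 0.059 SE). Dap3 did not overlap between genotypes. Single arrays moved these values: Dap3 was at 0.11 without LysM+/cre array 3, Gadd45gip1 at 0.027 and Ptcd3 at 0.62 without LysM+/+ array 3, and Ptcd3 at 0.25 without LysM+/+ array 2. Of 27 assembly and rRNA modification factors, 19 were higher, with a median of 0.12 and 0 at an unadjusted p under 0.05. The smallest p-values belonged to Tfb1m (0.41 ± 0.18 SE), which methylates the small rRNA, the helicase gene Ddx28 (0.42 ± 0.19 SE) and the GTPase gene Noa1 (0.23 ± 0.11 SE). Tfb1m was at 0.27 without LysM+/cre array 1, and without LysM+/+ array 1 Ddx28 was at 0.67 and Noa1 at 0.13. Of 14 measured translation factors 8 were higher (57.1%, near the 51.4% of all genes), with a median of 0.051. Gfm1, elongation factor G (0.20 ± 0.069 SE), was the only factor at an unadjusted p under 0.05. That is 7.14% of the list, against 6.56% of all genes higher. Tsfm, which recharges the elongation factor Tu, differed by 0.24 ± 0.11 (SE) and the recycling factor Mrrf by 0.52 ± 0.24 (SE). Tsfm was at 0.11 without LysM+/+ array 3, and Mrrf at -0.13 with the fibroblast score as a covariate. Of 16 measured mitochondrial tRNA synthetases 12 were higher (75%, against 51.4% of all genes), with a median of 0.062. Here too 0 had an unadjusted p under 0.05, against the same 6.56% and 4.93% of all genes. The synthetases included Hars2 (0.34), Tars2 (0.23) and Yars2 (0.19). Hars2 was at 0.17 without LysM+/+ array 1 and Yars2 at 0.099 without LysM+/cre array 4.

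Upstream of translation, 12 genes of mitochondrial DNA transcription and replication had a median of 0.014, with 6 higher (50%, against 51.4% of all genes) and 6 lower. At an unadjusted p under 0.05 there were 0, against 6.56% of all genes higher and 4.93% lower. The single-strand binding protein gene Ssbp1 was at -0.17, the elongation factor gene Tefm at 0.29 and Polg2, a polymerase subunit gene, at -0.17. Without 1 array these were -0.095 for Ssbp1 (LysM+/cre array 1), 0.16 for Tefm (LysM+/+ array 1) and -0.041 for Polg2 (LysM+/+ array 2). The 10 regulators of nuclear mitochondrial genes had a median of 0.016. The coactivator gene Ppargc1b was lower by 0.42 ± 0.15 (SE, adjusted p = 0.413), its relative Ppargc1a was at -0.41 ± 0.26 (SE) but -0.060 without LysM+/+ array 2, and Yy1 was at 0.20 ± 0.084 (SE).

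The mRNAs that the mitoribosome translates went the other way. All 10 measured mRNAs of mitochondrial DNA, of 13 listed, were lower with cre, where 51.4% of all genes were higher. Their median was -0.15, and 4 of them had an unadjusted p under 0.05, where 4.93% of all genes were lower at that p. COX3, a cytochrome oxidase subunit, ran from 12.15 to 12.38 without cre and from 11.86 to 12.10 with cre, which do not overlap, at a difference of -0.24 ± 0.089 (SE, adjusted p = 0.415). ND5 of complex I was at -0.22 ± 0.085 (SE, adjusted p = 0.416) and CYTB of complex III at -0.18 ± 0.070 (SE, adjusted p = 0.423). ND5 was at -0.15 without LysM+/+ array 3. With the score of fibroblast and smooth muscle markers as a covariate COX3 was at -0.086, ND5 at -0.067 and CYTB at -0.062. These mRNAs come from shared precursor transcripts and are not independent of each other. Their score was -0.0083, 0.044 and 0.25 on the LysM+/+ arrays and -0.17, 0.062, -0.13 and -0.054 on the LysM+/cre arrays. LysM+/cre array 2 lay within the LysM+/+ range, and LysM+/+ array 3, lowest for the mitoribosome, was highest here.

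The nuclear genes of the respiratory chain and ATP synthase were close to the mitoribosome in size of difference. Of 77 such genes, taken by symbol, 72 were higher (93.5%, against 51.4% of all genes), with a median of 0.20. At an unadjusted p under 0.05, 21 were higher (27.3%, against 6.56% of all genes). Their score was -0.032, -0.044 and -0.27 on the LysM+/+ arrays and 0.15, 0.19, 0.0046 and 0.011 on the LysM+/cre arrays. As for both mitoribosome subunits, the genotypes did not overlap. The arrays fell in the same order as for the large subunit, from LysM+/+ array 3 to LysM+/cre array 2. Of 64 cytosolic ribosomal protein genes, 56 were higher (87.5%, against 51.4% of all genes), with a median of 0.10. At an unadjusted p under 0.05, 3 were higher (4.69%, under the 6.56% of all genes). Their scores overlapped, since LysM+/cre array 3 was at -0.051, below LysM+/+ arrays 1 and 2 at -0.016 and -0.015. Whether these groups differ from the mitoribosome was not tested.

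Markers of other cell types and cell states were read as well, and only the monocyte scores separated the genotypes. All 5 measured monocyte markers of 6 listed were higher with cre, and their score ran from -1.16 to -0.32 without cre and from 0.19 to 0.96 with cre, with no overlap. Neutrophil markers were higher in 10 of 10, with scores from -1.40 to 0.34 without cre and from -0.40 to 1.44 with cre. Cycling cell markers were higher in 9 of 11 (-0.35 to 0.0098 against -0.14 to 0.36). Fibroblast and smooth muscle markers were lower in 10 of 12, with scores from 0.12 to 0.36 without cre and from -0.35 to 0.12 with cre. These overlapped, since LysM+/cre array 2 lay just above LysM+/+ array 2. Epithelial markers were lower in 11 of 12, and LysM+/+ array 3, where most members were lowest, had the highest score at 0.79, while LysM+/+ array 1 had the lowest at -0.69. LysM+/+ array 3 was also highest for endothelial markers (0.47, the others -0.30 to 0.085). Dendritic cell markers were higher in 2 of 6, T and NK cell markers in 2 of 8 and B and plasma cell markers in 4 of 7. The share of all genes that were higher, beside all these marker counts, was 51.4%. With the fibroblast score as a covariate 65 of 71 members were higher (91.5%, against 50.3% of all genes), with a median of 0.30. The number higher at an unadjusted p under 0.05 was then 9 (12.7%, against 3.63% of all genes). The part of the other cell types in the members' difference was not tested.

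**Figure D5:**
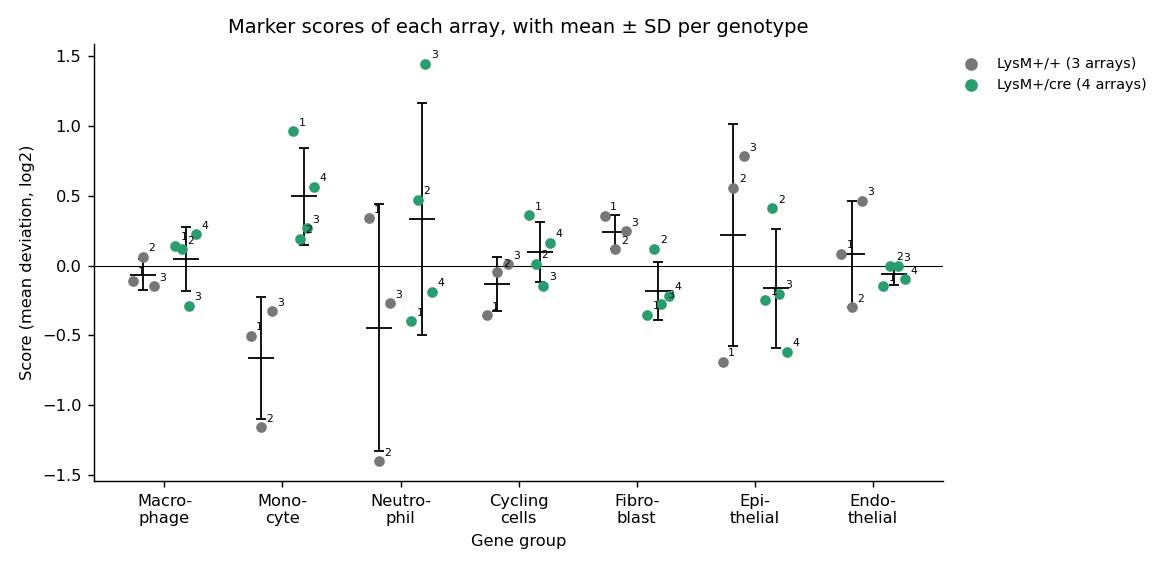
Score of each array (mean log2 deviation) for 7 lists of marker genes; numbers name the arrays, and bars give the mean ± SD of 3 LysM+/+ and 4 LysM+/cre arrays. Monocyte markers separate the genotypes, from -1.16 to -0.32 against 0.19 to 0.96, and epithelial markers spread from -0.69 to 0.79 among the LysM+/+ arrays.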

How the data were processed

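The deposited values were log2 intensities of 41345 probe sets on 7 arrays. Expression Console made these values, per the labels' design text. The submitters' processing notes add Transcriptome Analysis Console, without versions. The sources used here state neither the summarisation nor the background correction. Array medians were nearly equal, and a normalization that makes arrays alike would hide a shift common to all genes. Of the probe sets 23521 had 1 symbol, 1814 several and 16010 none listed, which gave 22180 genes. All 71 members matched RefSeq by Entrez identifier.

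Genotypes were compared over all genes with limma 3.58.1 in R 4.3.3 (lmFit, eBayes). Differences are with cre minus without, tests are two-sided, with Benjamini-Hochberg adjustment at 0.05. The code was tested on simulated data. Members, lists and tests were chosen with earlier results of these data known. Named genes were Rictor, 7 members of known role (Mrpl12, Mrps12, Mrps18a, Mrps18b, Mrps18c, Mrps30 and Mrps36), up to 6 members of smallest p per subunit and direction, members whose probe sets differ in sign, and 3 genes of smallest p per pathway list. Scores over members carry no p-value. The number of arrays limits the precision. Scaling, the probe set rule, a dim filter, the prior, array weights, a replicate block, a covariate, subunits by structure and single arrays left out were tried as alternatives. Plots used matplotlib 3.10.9.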

Additional observations from a re-analysis of the deposited data

Results flagged for a closer look

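Of 46 values tested among the 4 LysM+/cre arrays, 4 had 1 array far from the other 3, where chance gives about 1 in 20. Mrpl12 read 6.21 on array 1, a value that recurs in other genes, and 5.62 to 5.65 on the others. Mrpl16 read 7.79 on array 2 and 7.51 to 7.55 on the others. Gadd45gip1 read 5.71 on array 2 and 5.61 to 5.62 on the others. Rictor read 8.25 on array 3 and 7.72 to 7.80 on the others.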

How the results depend on the processing

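No gene passed the adjusted threshold under any of the alternatives run, with smallest adjusted p-values over all genes from 0.0599 to 0.726. Members higher at an unadjusted p under 0.05 numbered 9 with the fibroblast score as a covariate (12.7%, against 3.63% of all genes). With 1 array left out they ran from 8 (11.3%, against 4.55%, without LysM+/+ array 3) to 20 (28.2%, against 7.02%, without LysM+/+ array 1). At that p 0 members were lower under every one of these settings, against 2.55% to 5.51% of all genes. The median of the small subunit was 0.34 with that covariate. Leaving out 1 array gave medians of 0.14 to 0.24 for the large and 0.22 to 0.29 for the small subunit. It left 64 to 70 members higher (90.1% to 98.6%, against 50.3% to 52.3% of all genes). Mrpl16 changed sign with array medians set equal (0.021), with array weights (0.013) and with the replicate block (0.027), and ran from -0.17 to 0.26 without single arrays. Without single arrays Mrpl27 ran from -0.14 to 0.054, Mrpl10 from -0.018 to 0.27 and Rictor from -0.0040 to 0.17. Mrrf was at -0.13 with the covariate. The cause of these changes was not tested. Replicate numbers did not pair the samples (correlations of deviations of -0.11, 0.12 and 0.10), and the replicate block gave 19 members at an unadjusted p under 0.05 (26.8%, against 5.58% of all genes), of which 12 were among the 16 without it. LysM+/cre array 4 has no partner of its number, so the block takes no information from it, and its median of 0.24 is that without this array. In 25 members at least 2 arrays shared 1 identical deposited value, and in 8 at least 3 did, which limits how finely their differences can be read. Some values also recurred between genes, and why was not tested.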
